A study of Mus musculus with 2 samples.

Results

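The genes of DNA replication were followed in unstimulated mouse macrophages. The 45 members are genes of origin licensing, the replication fork and deoxynucleotide supply, taken by symbol from a deposited table of 22060 genes. All 45 had a row in the table, and they were sorted by the protein complex they encode into 9 groups. The rule that picks them uses symbols and no measured value, but the members were chosen with earlier results of these data known.

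RNA was sequenced from macrophages grown from the bone marrow of C57BL/6 mice aged 8 weeks, with 7 days of M-CSF, the growth factor that turns marrow progenitors into macrophages. The cells received no treatment (0 h). The WT group is 1 library from wild-type cells, and the T403A group is 1 library from cells with the alanine substitution T403A in STAT2, a transcription factor subunit of the type I interferon response. The way the T403A allele was made, and the number of animals behind each library, were not stated in the labels. With 1 library per genotype, all comparisons are between the libraries, with no replicate check of any difference between the genotypes.

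Replication is prepared in G1, when the origin recognition complex (ORC), Cdc6 and Cdt1 load the MCM helicase onto DNA, a step called licensing. In S phase Cdc45 and the GINS complex switch the helicase on, polymerase alpha-primase lays down primers, and polymerases epsilon and delta copy the strands with the clamp PCNA, which the RFC complex loads. Macrophages can divide in M-CSF culture and leave the cycle as they mature. E2F transcription factors drive many S phase genes, whereas mitotic genes are switched on later through promoter elements called CHR and CCAAT boxes.

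The libraries held 16033032 counts (WT) and 18658381 counts (T403A). Levels are CPM, the count scaled by the TMM-adjusted library total. Each T403A to WT ratio carries an exact 95% interval that covers counting error only. A gene was measured when its summed count was at least 20, and it counted as higher or lower with a difference of at least 1.5-fold and an interval that excluded 1. Stat2 itself was at 376 CPM in WT against 84.4 CPM in T403A, 4.46-fold lower (4.22 to 4.71). T403A replaces 1 amino acid, so an RNA level does not check the label. All 12 macrophage markers had counts in both libraries, with summed levels of 51550 CPM in WT against 39880 CPM in T403A, mostly from Lyz2. Singly, 1 of the 12 was higher (Mrc1, 5.12-fold) and 6 were lower, Fcgr1 the most (8.76-fold). The 10 markers of marrow progenitors, which divide fast, summed to 3.40 CPM and 2.01 CPM. Of these, Elane was at 0 in both libraries, Mpo had 1 count and 0 counts, Kit had 4 counts and 23 counts, and Myb had 21 counts and 7 counts. Summed markers of monocytes were at 327 and 69.9 CPM. Of the 5 measured ones, 3 were lower and 2 did not qualify. Hp was at 212 and 23.2 CPM and Ly6c2 at 64.7 and 1.555 CPM, while Ccr2 had a ratio of 1.10 (0.96 to 1.27). Summed markers of neutrophils were at 310 and 244 CPM, mostly from Csf3r. Of the 7 measured neutrophil markers, 3 were higher and 2 lower. Summed markers of dendritic cells were at 18.9 and 16.5 CPM, and of lymphocytes at 102 and 88.8 CPM, nearly all from Il7r. Erythroid and megakaryocyte markers summed to 34.9 and 6.02 CPM, mostly from Pf4, stromal markers to 8.87 and 3.81 CPM, and mast cell and basophil markers to 0.20 and 0.60 CPM. Defining genes at 0 in both libraries included Ly6g (neutrophils) and Cd3e (lymphocytes). Other genes of these lists had counts in WT and T403A, among them S100a8 (31 and 25), S100a9 (28 and 77) and Cd79b (8 and 20). The part of other cells in the results was not tested. In bulk RNA, a different share of dividing cells and a different amount of RNA per cell cannot be told apart.

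Part of the replication gene set was higher in the T403A library, and the difference followed the complexes unevenly. Of the 44 measured members, 16 were higher, none was lower and 28 did not qualify. Among all 11199 measured genes 13.5% were higher and 10.8% lower. The 16 higher members were all 5 genes of nucleotide supply, 5 of 8 polymerase genes, 2 of 6 MCM genes, 2 of 3 licensing genes, and 1 gene each of the helicase activators and the clamp group. No ORC or RPA gene was among them. Without a threshold, 32 of the 44 had a ratio above 1, against 51.2% of all measured genes. The median log2 ratio was 0.26 over the measured members and 0.01 over all measured genes. At a 2-fold threshold 10 members were higher and none lower, against 7.21% and 6.08% of all measured genes. Fen1, the remaining member, had 11 counts in WT and 6 counts in T403A and was not measured.

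**Figure D1:**
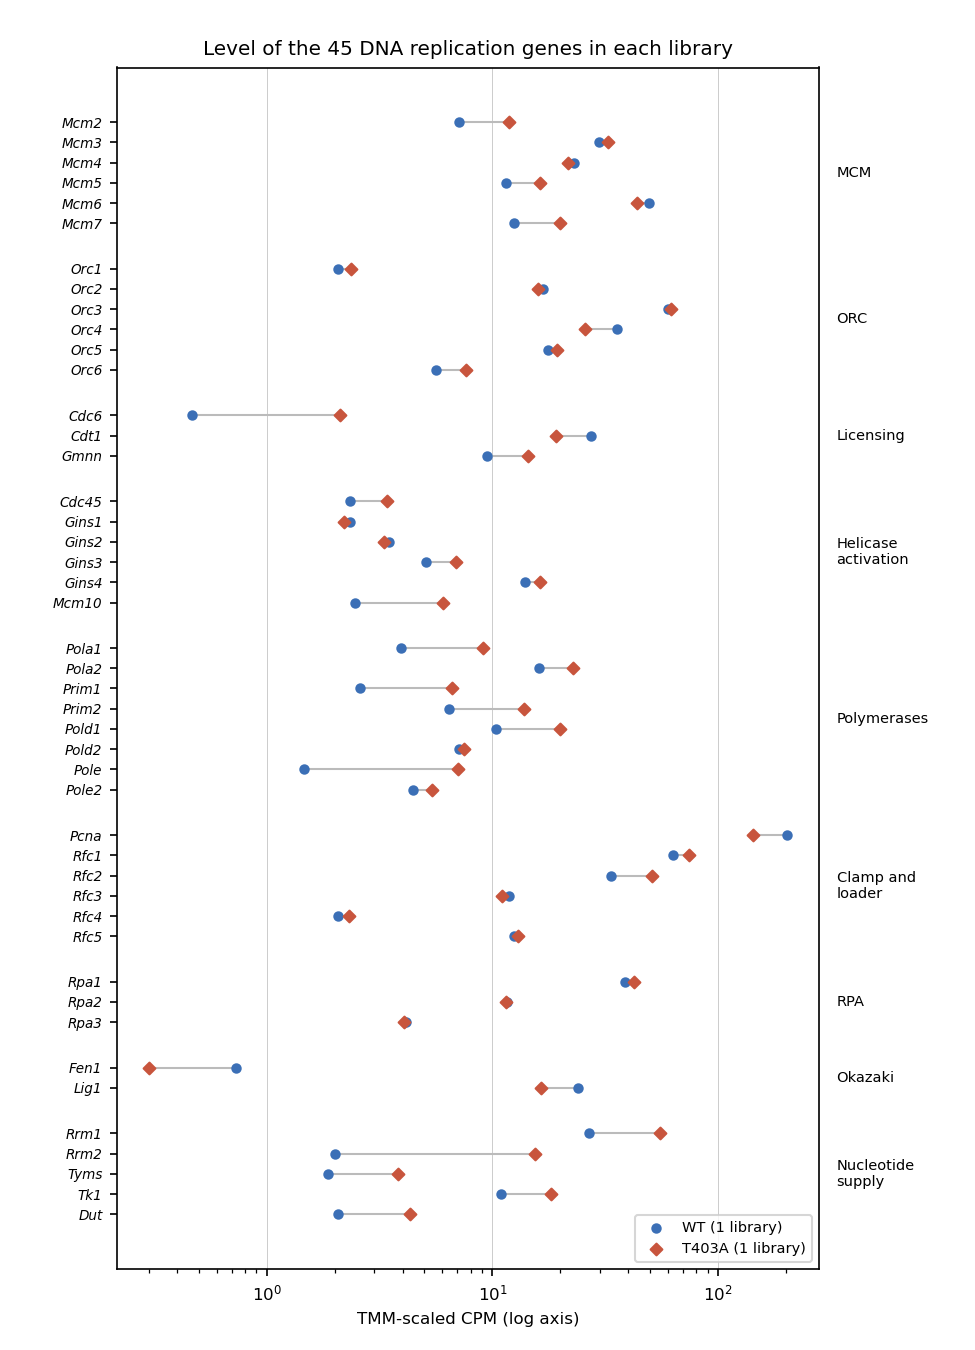
Level of each of the 45 genes in TMM-scaled CPM on a log axis, with circles for the WT library and diamonds for the T403A library, sorted by complex. The lines between them are long for Cdc6, Pole and Rrm2 and short for the RPA genes, and Pcna is the most abundant gene in both libraries.

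Promoter sequences were read for the 37 members with an entry in a RefSeq table (GRCm38.p6), each window running from 250 bases before to 50 bases after a start site. Mcm4, Gmnn, Gins1, Gins2, Gins4, Prim2, Pole and Rfc2 had none. The 37 members had 45 windows. A gene had a match when any of its windows held one, so 2 elements of a gene can lie in different windows. An E2F-type site was searched on both strands as TTT, then 2 bases that are each C or G, then CGC. It was found in 14 of 37 members (37.8%), in 2.6% of all 27025 genes with a window and in 4.81% of the 8938 measured ones. Of the members that were higher, 4 of 12 had a match, and of the others 10 of 25. The share with a match was thus 33.3% among the higher members and 40% among the rest. The 28 mitotic genes with a window differed in these letters. Of them, 1 had an E2F-type match, and 22 (78.6%) had both a CHR (TTTGAA or TTTAAA, both strands) and a CCAAT box (CCAAT, both strands), against 10.6% of measured genes and 7 of 37 members. A match is a description of letters, not a measured binding site.

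The windows printed here show a gene with 3 E2F-type matches and a ratio near 1 (Mcm6, chr1:128359656-128359955, minus strand), another MCM gene with 2 overlapping matches (Mcm5, chr8:75109259-75109558, plus), a pair of licensing genes with 1 match each (Cdt1, chr8:122567765-122568064, plus, and Cdc6, chr11:98907901-98908200, plus), and the gene with the largest ratio (Rrm2, chr12:24708004-24708303, plus). Each is written 5′ to 3′ on the gene's strand. Capitals mark the E2F-type matches in the MCM, Cdt1 and Cdc6 windows and the CCAAT box and CHR in the Rrm2 window, which had no E2F-type match.
Mcm6: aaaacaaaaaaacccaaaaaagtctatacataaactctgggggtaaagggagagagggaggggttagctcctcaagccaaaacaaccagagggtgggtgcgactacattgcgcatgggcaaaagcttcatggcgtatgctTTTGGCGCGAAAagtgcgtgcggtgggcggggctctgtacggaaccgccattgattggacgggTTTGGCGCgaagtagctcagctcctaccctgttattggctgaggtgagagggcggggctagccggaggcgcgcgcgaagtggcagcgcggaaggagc
Mcm5: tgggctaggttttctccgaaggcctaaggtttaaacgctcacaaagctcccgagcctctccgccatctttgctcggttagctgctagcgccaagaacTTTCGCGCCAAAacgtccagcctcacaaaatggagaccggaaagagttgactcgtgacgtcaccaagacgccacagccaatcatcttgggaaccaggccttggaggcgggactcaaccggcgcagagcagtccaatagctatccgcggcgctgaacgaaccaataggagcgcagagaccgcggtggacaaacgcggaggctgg
Cdt1: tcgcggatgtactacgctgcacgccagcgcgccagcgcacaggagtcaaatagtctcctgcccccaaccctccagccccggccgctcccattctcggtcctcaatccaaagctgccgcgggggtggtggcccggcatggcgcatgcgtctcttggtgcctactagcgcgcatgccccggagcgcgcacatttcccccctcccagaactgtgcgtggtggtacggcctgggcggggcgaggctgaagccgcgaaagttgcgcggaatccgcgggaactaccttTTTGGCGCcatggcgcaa
Cdc6: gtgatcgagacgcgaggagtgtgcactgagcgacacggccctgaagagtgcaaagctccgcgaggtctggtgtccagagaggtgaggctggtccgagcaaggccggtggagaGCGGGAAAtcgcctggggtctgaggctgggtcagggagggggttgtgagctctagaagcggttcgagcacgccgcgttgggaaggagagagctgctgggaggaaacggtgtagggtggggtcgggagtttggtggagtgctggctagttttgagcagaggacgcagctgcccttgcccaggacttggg
Rrm2: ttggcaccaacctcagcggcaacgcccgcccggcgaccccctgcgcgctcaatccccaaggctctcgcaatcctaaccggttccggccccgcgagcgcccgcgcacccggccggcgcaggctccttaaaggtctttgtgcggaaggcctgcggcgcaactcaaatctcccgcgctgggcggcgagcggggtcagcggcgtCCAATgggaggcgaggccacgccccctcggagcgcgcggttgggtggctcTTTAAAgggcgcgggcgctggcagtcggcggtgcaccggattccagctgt
In Mcm6 the first 2 matches overlap and read in opposite directions, as do both matches of Mcm5. Mcm2, Mcm5, Orc2, Cdc45, Gins3 and Pold2 were the other members with both a CHR and a CCAAT box, which in Pold2 lay in separate windows. Their ratios ran from 0.96 (Orc2) to 1.66 (Mcm2), below the 7.75 of Rrm2.

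All 5 members of the nucleotide supply group were higher in the T403A library. Ribonucleotide reductase, which makes deoxynucleotides from ribonucleotides, is built from a large subunit (Rrm1) and a small subunit (Rrm2) that is made mainly in S phase. Rrm2 (ENSMUSG00000020649, chromosome 12, 24708241 to 24714146, plus strand, GRCm38) was at 2.0 CPM in WT against 15.5 CPM in T403A. That is 7.75-fold higher (5.32 to 11.7), the largest ratio of any member. Rrm1 (chromosome 7, 102441695 to 102469771) was at 26.7 CPM in WT against 55.5 CPM in T403A, 2.07-fold higher (1.85 to 2.33). The ratio of Rrm2 exceeded that of Rrm1 by 3.73-fold, with a counting interval of 2.51 to 5.73. Both subunits were thus higher in T403A, with the larger ratio in the small subunit.

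The other members of this group had ratios near or below that of Rrm1. Tyms, which makes thymidylate, was at 1.87 CPM in WT against 3.81 CPM in T403A, 2.04-fold higher (1.31 to 3.27). Dut, which removes dUTP so that uracil is kept out of DNA, was at 2.07 and 4.31 CPM, 2.09-fold higher (1.37 to 3.26). The thymidine salvage kinase gene Tk1 was at 10.9 CPM in WT against 18.2 CPM in T403A, 1.67-fold higher (1.38 to 2.01). Tyms and Dut rest on 28 and 31 WT counts, so their intervals are wide and overlap those of Rrm1 and Tk1. The summed level of these 5 genes was 43.6 CPM in WT against 97.3 CPM in T403A, 2.23-fold higher (2.04 to 2.44).

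A wider list of nucleotide synthesis genes did not show this. It holds 33 further genes of purine, pyrimidine and folate metabolism, of which 32 were measured. Of these, 2 were higher, 4 were lower and 26 did not qualify, with a median log2 ratio of -0.08. The share of higher genes was 6.25%. Among all measured genes 13.5% were higher and 10.8% lower. Dctpp1, which clears modified dCTP, was higher at 3.33 and 5.01 CPM (1.505-fold, 1.06 to 2.16). Among the lower genes, Dck, the deoxycytidine salvage kinase, was at 212 CPM in WT against 60.4 CPM in T403A, 3.51-fold lower (3.28 to 3.75). Samhd1, which breaks deoxynucleotides down, was at 929 CPM in WT against 386 CPM in T403A, 2.41-fold lower (2.34 to 2.48). Ctps, a CTP synthase, was 3.05-fold lower (2.05 to 4.62) at 5.67 and 1.85 CPM. Cmpk1, an abundant nucleotide kinase gene, did not reach 1.5-fold at 183 and 143 CPM.

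The polymerase genes came next, and Pole, Pold1 and Pola1, which encode the catalytic polymerase subunits, had larger ratios than Pole2, Pold2 and Pola2. Polymerase epsilon copies the leading strand. Its catalytic subunit gene Pole (chromosome 5, 110286306 to 110337474) was at 1.47 CPM in WT against 7.02 CPM in T403A, 4.79-fold higher (3.04 to 7.88). Its partner Pole2 was at 4.47 and 5.42 CPM, with a ratio of 1.21 (0.89 to 1.67). The ratio of Pole was 3.95-fold that of Pole2, with an interval of 2.23 to 7.13. A limit for Pole2 is that 8.5% of its exon bases overlap Gm49384 on the same strand, which had 0 counts in both libraries. Polymerase delta, the lagging strand enzyme, gave the same order with a smaller gap. Pold1, the catalytic subunit gene, was at 10.4 CPM in WT against 19.9 CPM in T403A, 1.91-fold higher (1.58 to 2.31). Pold2 was at 7.13 and 7.47 CPM, with a ratio of 1.05 (0.81 to 1.36). The gap between these subunits was 1.82-fold (1.32 to 2.51).

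Polymerase alpha-primase starts each DNA strand with a short RNA and DNA primer. Its catalytic polymerase gene Pola1 (X chromosome) was at 3.93 CPM in WT against 9.08 CPM in T403A, 2.31-fold higher (1.71 to 3.15). The primase catalytic gene Prim1 was at 2.60 and 6.62 CPM, 2.55-fold higher (1.77 to 3.74). The large primase subunit gene Prim2 was at 6.40 and 13.8 CPM, 2.16-fold higher (1.71 to 2.76). The intervals of these 3 genes overlap. The regulatory subunit gene Pola2 was at 16.1 CPM in WT against 22.7 CPM in T403A, a ratio of 1.41 (1.20 to 1.65) that stays under 1.5-fold. Pola1, Prim1 and Prim2 exceeded Pola2 by 1.64-fold (1.16 to 2.33), 1.81-fold (1.21 to 2.75) and 1.54-fold (1.152 to 2.06). All pairs of genes whose ratios are compared in this way were chosen after their values were seen, so these intervals are descriptions. All 8 polymerase genes had a ratio above 1, and their summed level was 52.5 CPM in WT against 92.0 CPM in T403A, 1.75-fold higher (1.61 to 1.91).

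**Figure D2:**
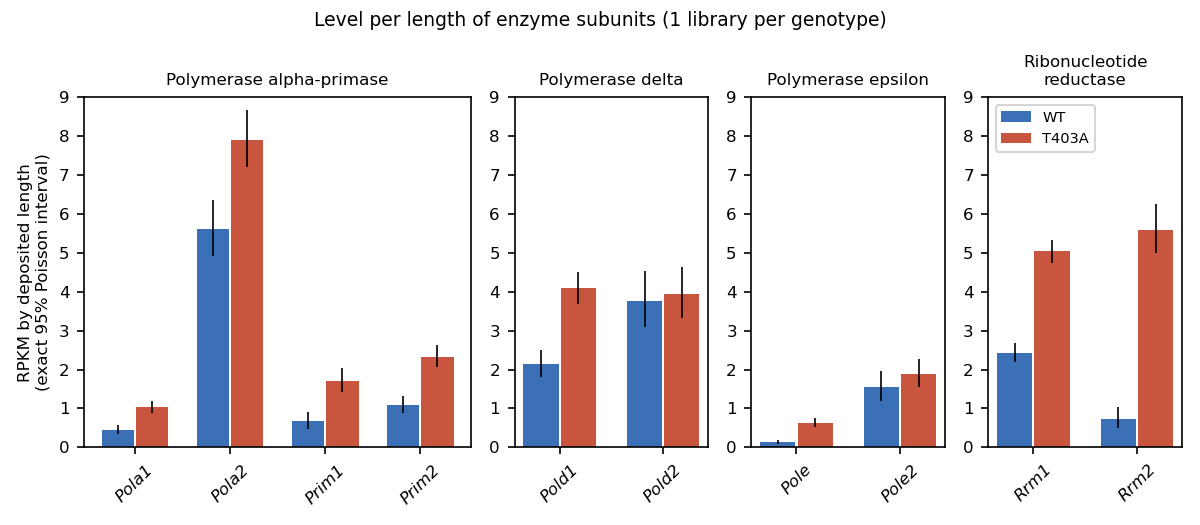
RPKM (CPM per kilobase of the deposited gene length) of polymerase and ribonucleotide reductase subunits, with bars for each library and lines for exact 95% Poisson intervals. The intervals of Pole, Pold1 and Rrm2 do not overlap between the libraries, and those of Pole2 and Pold2 do.

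Levels of different genes were compared per kilobase. Rrm2 was at 0.722 RPKM in WT (0.487 to 1.03), below Rrm1 at 2.43 RPKM (2.20 to 2.68). In T403A Rrm2 was at 5.59 RPKM (4.99 to 6.25) and Rrm1 at 5.04 RPKM (4.74 to 5.34), which overlap. The deposited length is the union of all exons, 11012 bases for Rrm1, and with the 3997 bases of its principal transcript Rrm1 stayed above Rrm2 in both libraries. Measured that way, the Rrm2 level was 0.136 of the Rrm1 level in WT and 0.509 in T403A. Pold1 went from 2.14 RPKM in WT to 4.09 RPKM in T403A, against 3.76 and 3.94 RPKM for Pold2. Pole remained the least abundant polymerase gene per length in both libraries, at 0.131 and 0.629 RPKM.

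The MCM helicase genes were split. MCM subunits form a ring of 6 different proteins that unwinds DNA. Mcm2 was at 7.13 CPM in WT against 11.8 CPM in T403A, 1.66-fold higher (1.31 to 2.10). Mcm7 was at 12.4 and 19.9 CPM, 1.61-fold higher (1.35 to 1.92). The other 4 subunit genes did not reach 1.5-fold. Mcm5 was at 11.5 and 16.3 CPM with a ratio of 1.41 (1.17 to 1.71), and Mcm3 at 29.5 and 32.6 CPM with a ratio of 1.11 (0.98 to 1.25). Mcm4 was at 22.9 CPM in WT against 21.7 CPM in T403A, and Mcm6 at 49.5 and 43.6 CPM. Mcm6 was 1.13-fold lower (1.03 to 1.25), and its log2 ratio of -0.18 became 0.01 with library totals as the scale. A limit for Mcm7 is that 7.25% of its exon bases overlap Ap4m1 on the opposite strand.

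Per kilobase, the subunit genes of the ring were unequal in both libraries. In WT the order was Mcm6 (10.6 RPKM), Mcm3 (7.87), Mcm4 (6.39), Mcm5 (2.89), Mcm7 (2.80) and Mcm2 (1.02). Of these neighbours only Mcm5 and Mcm7 had overlapping intervals. In T403A Mcm6 (9.34 RPKM) and Mcm3 (8.70) led with overlapping intervals, Mcm4 (6.05) came next, Mcm7 (4.50) and Mcm5 (4.08) overlapped again, and Mcm2 (1.70) was last. With principal transcript lengths, the intervals of Mcm7 and Mcm5 overlapped in WT and those of Mcm7 and Mcm4 in T403A, so these neighbours have no settled order. The ratio of the summed MCM level, 133 CPM in WT against 146 CPM in T403A, was 1.10 (1.04 to 1.16).

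Genes of the origin recognition complex, which marks origins through the cell cycle, were neither higher nor lower by these rules in all 6 cases. Orc1, the subunit that is regulated through the cycle, was at 2.07 and 2.36 CPM on 31 and 47 counts, with a ratio of 1.14 (0.71 to 1.86). Orc3, the most abundant per length, was at 59.8 CPM in WT against 61.7 CPM in T403A (ratio 1.03, 0.95 to 1.13). Orc2 was at 16.7 and 15.9 CPM and Orc5 at 17.7 and 19.4 CPM. The outer pair were Orc6, at 5.60 and 7.62 CPM with a ratio of 1.36 (1.04 to 1.80), and Orc4, at 35.5 and 25.6 CPM, 1.39-fold lower (1.23 to 1.57). Reads of Orc2 carry a limit, because 29.8% of its exon bases overlap Nif3l1 on the opposite strand. Smaller overlaps on the opposite strand included 6.93% for Orc6 (with Vps35) and 5.98% for Orc4 (with Acvr2a).

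Of the licensing genes, Cdc6 and Gmnn were higher and Cdt1 did not qualify. Cdc6, the ATPase that joins ORC to load MCM, is on chromosome 11 (98907801 to 98923940). It was at 0.467 CPM in WT (7 counts) and 2.11 CPM in T403A (42 counts), 4.51-fold higher (2.01 to 11.9). Cdt1, which brings MCM to Cdc6, was at 27.3 CPM in WT against 19.1 CPM in T403A, 1.43-fold lower (1.24 to 1.65) and so short of 1.5-fold. Gmnn encodes geminin, the inhibitor of Cdt1 that accumulates from S phase to mitosis. It was at 9.47 CPM in WT against 14.4 CPM in T403A, 1.53-fold higher (1.24 to 1.88). Per kilobase, Cdt1 was above Gmnn in WT (8.68 and 6.46 RPKM) and below it in T403A (6.08 and 9.86 RPKM), without overlap of the intervals in either library. The ratio of Gmnn was 2.18-fold that of Cdt1 (1.69 to 2.80).

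Of the 6 factors that turn the loaded helicase on, 1 (16.7%) was higher, near the 13.5% of all measured genes. Mcm10, which is needed for origins to fire, was at 2.47 CPM in WT against 6.02 CPM in T403A, 2.44-fold higher (1.67 to 3.63). Cdc45, the helicase partner, was at 2.33 and 3.41 CPM, with a ratio of 1.46 (0.96 to 2.27). The GINS genes had ratios of 0.95 for Gins1 (0.59 to 1.52), 0.95 for Gins2 (0.65 to 1.40), 1.37 for Gins3 (1.03 to 1.83) and 1.17 for Gins4 (0.98 to 1.39). Their levels ran from 2.33 to 13.9 CPM in WT and from 2.21 to 16.2 CPM in T403A. With 35 WT counts for Gins1 and 52 for Gins2, no difference was detectable at this depth, as both intervals hold 1. For Gins2, 67.3% of exon bases overlap Gse1 on the opposite strand, and for Cdc45, 5.96% overlap Ufd1.

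The sliding clamp was lower in T403A, short of 1.5-fold, and 1 loader gene was higher. In the clamp group 16.7% of genes were thus higher, near the 13.5% of all measured genes. Pcna (chromosome 2, 132249162 to 132253314), the ring that holds polymerases on DNA, was at 202 CPM in WT against 143 CPM in T403A, 1.41-fold lower (1.34 to 1.49). It gave 24.1% of all member counts in WT and 15.7% in T403A. Among the loader genes, Rfc1, the large subunit, was at 62.9 and 74.3 CPM (ratio 1.18, 1.09 to 1.28), and Rfc2 was at 33.3 and 50.8 CPM, 1.52-fold higher (1.37 to 1.70). Rfc2 shares 15.1% of its exon bases with Lat2 on the opposite strand, and Lat2 had 757 counts in WT and 2192 counts in T403A. Its part in the Rfc2 ratio was not tested. Rfc3, Rfc4 and Rfc5 had ratios of 0.93 (0.76 to 1.14), 1.12 (0.69 to 1.82) and 1.05 (0.86 to 1.27). Rfc4 shares 12.7% of its exon bases with Eif4a2 and Rfc5 10.7% with Wsb2, both on the opposite strand. The summed level of the clamp group had a ratio of 0.907 (0.873 to 0.942), a log2 ratio of -0.14 that became 0.05 with library totals and 0.31 without Pcna.

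No gene of RPA, the complex that coats single strands of DNA, qualified as higher or lower. Rpa1 was at 38.5 CPM in WT against 42.5 CPM in T403A, Rpa2 at 11.6 and 11.5 CPM, and Rpa3 at 4.13 and 4.06 CPM. Their ratios were 1.10 (0.99 to 1.23), 0.99 (0.81 to 1.21) and 0.98 (0.70 to 1.39). Lig1, the ligase that seals Okazaki fragments, was at 23.9 CPM in WT against 16.4 CPM in T403A, 1.46-fold lower (1.25 to 1.70). Lig1 had the lowest ratio of the measured members and did not reach 1.5-fold. Zswim9 overlaps 5.79% of the Lig1 exon bases on the opposite strand. Fen1, the flap nuclease of the same step, was at 0.733 and 0.301 CPM, with an interval of 0.12 to 1.21 for its ratio. Of its exon bases, 78.8% overlap the antisense gene Gm10143, so its level is uncertain.

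**Figure D3:**
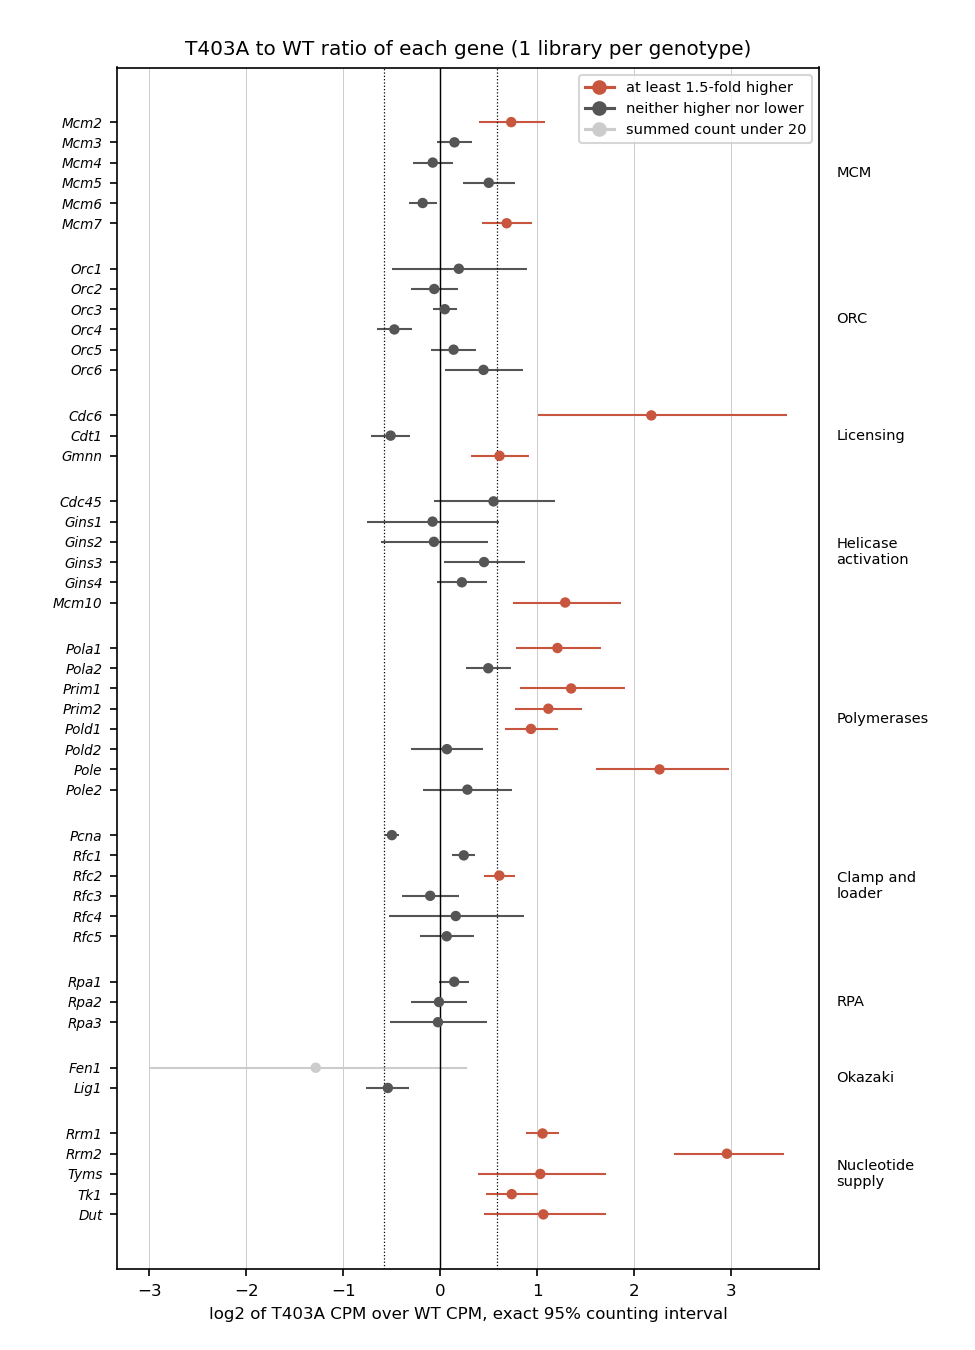
Log2 of the T403A to WT ratio for each of the 45 genes with its exact 95% counting interval, in red where at least 1.5-fold higher, and dotted lines at 1.5-fold in either direction. All 5 nucleotide supply genes and 5 of 8 polymerase genes lie to the right, and no gene is counted to the left.

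Genes close to the threshold show how the count was reached. Just inside were Rfc2 (1.52-fold) and Gmnn (1.53-fold), and just outside were Cdc45 (ratio 1.46), Mcm5 (1.41) and Pola2 (1.41). On the lower side, Lig1 (1.46-fold lower), Cdt1 (1.43-fold) and Pcna (1.41-fold) were just outside, with intervals that exclude 1. Scaled by library totals, Cdc45, Mcm5, Pola2, Gins3 and Orc6 also counted as higher, 21 members in all. The median of all measured genes then went from 0.01 to 0.20 on the log2 scale, and the split over all genes went from 1515 higher and 1214 lower to 2290 higher and 890 lower.

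Low genes were more often higher in T403A throughout the table. Among measured genes with a mean under 10 CPM, 27.7% were higher, and 9 of the 19 members in that range were. At a mean of 10 CPM or more, 8.3% of genes were higher, and 7 of the 25 members were (Rrm1, Rfc2, Mcm7, Pold1, Tk1, Gmnn and Prim2). Across the 44 measured members, Spearman's rho between mean CPM and log2 ratio was -0.38 (Pearson's r -0.40 with log2 CPM), against -0.25 (-0.21) across all measured genes. The members share both libraries, so this describes the pair of libraries.

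**Figure D4:**
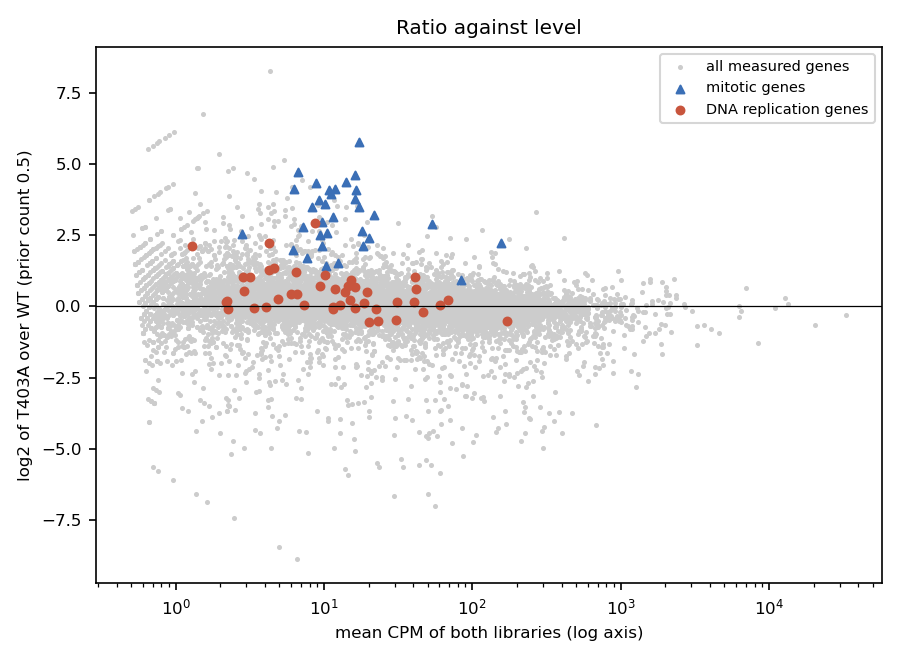
Log2 of the T403A to WT ratio against mean CPM (log axis) for all measured genes in grey, the replication genes as red circles and mitotic genes as blue triangles. Replication genes run from -0.54 to 2.94 on the log2 scale, and mitotic genes of similar level mostly lie above them.

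Mitotic genes are given beside the members as a description. In a list of 33 mitotic genes, all were measured and all 33 were higher in T403A, with a median log2 ratio of 3.13, against 16 of 44 and 0.26 for the replication genes. Cenpf, a kinetochore protein gene, was at 0.60 CPM in WT against 34.0 CPM in T403A, 56.7-fold higher (29.7 to 124), and Incenp, with the smallest ratio, was 1.91-fold higher (1.76 to 2.07). Summed levels were 202 and 1099 CPM, 5.44-fold higher in T403A (5.24 to 5.66), while the 45 replication genes summed to 836 and 911 CPM, a ratio of 1.09 (1.06 to 1.11). Only Rrm2, Pole and Cdc6 among the members exceeded 2.71-fold, the ratio of the mitotic kinase gene Cdk1, the next smallest after Incenp. Mki67, the proliferation marker gene, was at 54.8 and 258 CPM, 4.70-fold higher (4.37 to 5.07). The list was known to be higher in these libraries when it was chosen, so neither its direction nor its size is an independent result.

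A wider list of replication genes also had more higher than lower genes. Of 40 further genes (origin firing, fork protection, chromatin assembly), 39 were measured. Of these, 12 (30.8%) were higher, 2 were lower and 25 did not qualify, with a median log2 ratio of 0.38. The shares over all measured genes were 13.5% higher and 10.8% lower. Ticrr, which loads Cdc45 when origins fire, was at 0.533 CPM in WT against 5.07 CPM in T403A, 9.50-fold higher (4.64 to 22.6). Clspn, the fork protein claspin, was 4.56-fold higher (3.09 to 6.96) at 2.0 and 9.13 CPM. Timeless, another fork protection gene, was 2.14-fold lower (1.62 to 2.83) at 9.33 and 4.36 CPM, and Top1, the topoisomerase that relaxes DNA ahead of the fork, was 1.58-fold lower (1.48 to 1.69) at 142 and 89.6 CPM. Dnmt1, the maintenance DNA methyltransferase, was at 112 and 158 CPM, a ratio of 1.41 (1.33 to 1.5).

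Among 25 regulators of the G1 to S transition, 9 were higher, 3 were lower and 13 did not qualify (median log2 ratio 0.16). The share of higher regulators was 36%, against 13.5% higher and 10.8% lower among all measured genes. The activator E2f2 was at 18.3 CPM in WT against 68.7 CPM in T403A, 3.75-fold higher (3.29 to 4.28), and the E2F repressor E2f7 had 1 and 55 counts, a ratio of 41.4 (7.12 to 1664). The D-type cyclin gene Ccnd2 was at 6.20 and 1.05 CPM, 5.89-fold lower (3.64 to 9.96), and Ccnd1 at 23.4 and 10.6 CPM, 2.20-fold lower (1.85 to 2.62). Ccnd3, added after its values were seen, was at 33.8 and 55.3 CPM, 1.64-fold higher (1.47 to 1.82). The CDK inhibitor gene Cdkn1a was at 121 and 65.0 CPM, 1.86-fold lower (1.74 to 2.0), and Cdkn1b did not reach 1.5-fold at 78.9 and 88.0 CPM. Cdkn2c, another CDK inhibitor gene, went the other way at 8.67 and 28.9 CPM, 3.34-fold higher (2.76 to 4.07).

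**Figure D5:**
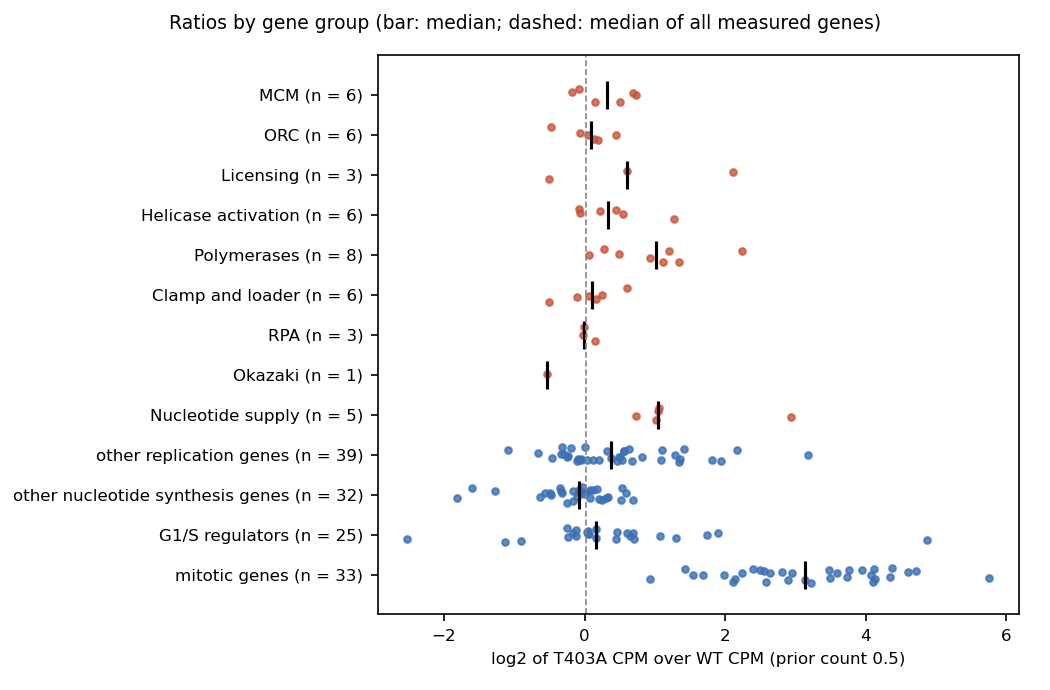
Log2 of the T403A to WT ratio (prior count 0.5) of each measured gene, with replication complexes in red and the comparison lists in blue, a bar for each median and a dashed line for the median of all measured genes. Nucleotide supply and polymerases have medians of 1.05 and 1.02, ORC and RPA lie near 0, and the mitotic list lies at 3.13.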

How the data were processed

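The authors deposited 1 table of whole-number read counts per Ensembl gene with a gene length, per the file headers. The genome build GRCm38 and the tools HISAT2, HTSeq 0.9.1, cutadapt 1.15 and DESeq 1.30.0 come from the submitters' processing notes, with no roles. RNA selection, strand setting and annotation release were not given there. Columns were matched to samples by title. Symbols were found for 21969 of 22060 genes, and positions come from GENCODE M21 (GRCm38). Its exon unions equal the deposited length for 44 of 45 members (not Pola2). Without the strand setting, reads of a gene and its antisense neighbour may be mixed or left uncounted.

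Counts were scaled with TMM (edgeR 4.0.16, R 4.3.3). Ratios carry exact 95% Clopper-Pearson intervals (scipy 1.17.1), and log2 ratios in medians use a prior count of 0.5. Ratios between genes carry exact conditional intervals and RPKM exact Poisson intervals. All intervals cover counting error only. Scoring was tested on simulated counts with counting error only. Differences of at least 2-fold were planted in genes with an expected summed count of at least 100. Smaller differences, lower counts for changed genes and variation between libraries were not covered. Each group is 1 library, so no p-value was computed. Alternatives were DESeq2 1.42.0 size factors, library totals, other count filters, a 2-fold threshold and a prior count of 2. All 45 members were named, and from each comparison list the 2 largest and 2 smallest ratios and the 2 highest levels, with some genes not reported here. Members and lists were chosen with earlier results of these data known.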

Additional observations from a re-analysis of the deposited data

How the results depend on the processing

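With DESeq2 size factors, 16 members were again higher and none lower, and no member changed its call. Over all measured genes 1495 were then higher and 1230 lower. With library totals all log2 ratios moved up by the same amount. The members' median was then 0.45, their summed level 0.31, and 21 members were higher. The summed log2 ratios were 0.33 for MCM, 0.14 for ORC, 0.13 for the licensing genes, 0.56 for helicase activation, 1.00 for polymerases, 0.29 for RPA and 1.35 for nucleotide supply. The clamp group reversed to 0.05 and Mcm6 to 0.01, and 2290 genes of the whole table were higher. With a summed count of at least 100, 15 of 40 members were higher, against 1161 of all 9890 genes that passed. The members' median was then 0.36, and with no filter it was 0.24 over 45. At 2-fold 10 members were higher, and over all genes 808 were higher and 681 lower. Some alternatives were chosen after seeing the data. Without Pcna the summed log2 ratio was 0.27 for the members and reversed to 0.31 for the clamp group. The 11 measured members that share at least 5% of exon bases with another gene of the table were also left out. Of the other 33, 14 were higher, with a median of 0.45, against 13.5% of all measured genes without this filter. No member was counted as lower under any of these settings. No paired analysis was possible because each genotype has 1 library. Depth limits Cdc6, Orc1, Rfc4, Tyms, Dut, Pole, Rrm2 and Fen1, which had at most 31 counts in WT.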
